A study of Homo sapiens with 17 samples.

Results

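The 37 genes described here carry signals from the ERBB receptors through RAS and PI3K, and were taken by symbol from a list arranged by pathway role. The choice rule used no measured value, but the list was drawn up with earlier results of these libraries known. They were 37 of 38147 RefSeq genes with a unique symbol on the chromosomes used. The list held 3 receptors, 6 adaptors and exchange factors, 7 genes of the RAS to MAPK branch, 10 of the PI3K to AKT branch, 6 around mTOR and, kept apart, 5 feedback inhibitors. HCC1954 is an established HER2-positive breast cancer cell line of epithelial origin. Its cells were transfected with antisense oligonucleotides and fixed after 72 hours, in an arm labelled NC1235 and an arm labelled Si1235, in a series whose title names the long noncoding RNA LINC01235. What the arm names stand for is not spelled out, and no RNA level was measured in the files used, so the level of LINC01235 in either arm was not checked. Chromatin was immunoprecipitated for the histone variant H2A.Z (H2AZ in the labels), for H3K27ac and for H3K36me3 with 2 libraries per arm, and for H3K9ac with 1 library per arm. The peak names inside both H3K9ac lists read H3K6AC, so the mark is taken from the labels and was not checked further. A map of chromatin bound by an RNA (ChIRP) was made in the NC1235 arm only, as 1 library.

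ERBB receptors are tyrosine kinases that pair when a ligand binds, and ERBB2 (HER2), which has no ligand of its own, signals mostly as a partner of the others. Phosphorylated receptors recruit adaptors that load RAS with GTP and start the RAF, MEK and ERK kinase cascade, and recruit PI3K, whose lipid product brings AKT to the membrane and leads on to mTOR. The cascade induces its own inhibitors, among them the DUSP phosphatases, the Sprouty proteins and ERRFI1. H3K27ac, H3K9ac and H2A.Z are found around the starts of active or poised genes, and H3K36me3 is laid down along gene bodies during transcription.

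Each value below is the percentage of a stretch of DNA covered by the peaks the authors called in 1 library: for H2A.Z, H3K27ac and H3K9ac the window 1 kb either side of the gene start, and for H3K36me3 the whole gene body. Such cover measures the called extent of a mark, not its height. Between 42759 and 51229 H2A.Z peaks were called per library, between 44836 and 48391 H3K27ac peaks, and between 67302 and 81320 H3K36me3 peaks. The single lists of H3K9ac had 59945 (NC1235) and 60035 (Si1235) peaks and that of ChIRP had 128273. Replicate 2 lists were narrower than replicate 1 lists for H2A.Z and H3K36me3, with median differences in cover over all genes tested of 4.1 and 5.97 points in NC1235 and of 4.7 and 3.72 points in Si1235. In the H3K27ac lists of NC1235, 0.7% and 12.7% of 1500 weak peaks had a height that resolved to whole reads, against 99.9 to 100.0% in the other 13 lists. This difference in how heights were made coincides with the H3K27ac contrast between arms, and its part in the H3K27ac values below was not tested. The epithelial label fitted 6 of 6 markers, with KRT7, KRT8, KRT18 and KRT19 windows fully covered by H3K27ac in all 4 libraries and CDH1 and EPCAM at 69.3 to 92.1%. Of 6 markers of other cell types with an H3K27ac window, PTPRC and PECAM1 were at 0, and CD14, CDH5, COL1A1 and CD3E were partly covered, CD3E at 23.2 and 24.0% in NC1235, against 57.2 and 52.4% in Si1235.

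Nearly all of the signalling genes had marked promoters in both arms, and none passed the test between arms. An H2A.Z peak touched the window of 37 of 37 genes in each of the 4 libraries, an H3K9ac peak 37 of 37 in both libraries, and an H3K27ac peak 36 of 37 in each library, the exception being ERBB4. H3K36me3 peaks lay in the bodies of 34 to 36 of 37 genes. Over all genes with a window, 13323 of 31386 had no H2A.Z peak in any library. For H3K27ac this held for 15714 of 31685, for H3K9ac for 13500 of 31631, and for H3K36me3 for 8116 of 18723 gene bodies. The starts of 4 listed genes were placed at the gene end with more cover of the other promoter marks, which favours a peak there. The median gene of the set had 77.7% of its window under H2A.Z in NC1235 and 82.5% in Si1235, against 69.7 and 71.9% over all genes tested. For H3K27ac these medians were 87.1 and 89.3%, against 72.6 and 73.7%, and for H3K9ac 100.0 and 100.0%, against 83.8 and 82.8%. For H3K36me3 they were 32.8 and 37.7% over the 32 genes with at least 5% mean cover, against 40.0 and 41.7%. For the promoter windows, all genes here and below are protein-coding and lncRNA genes together. All 37 listed genes code for proteins, so those sets are unlike. For H3K36me3, all genes are protein-coding genes only.

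**Figure D1:**
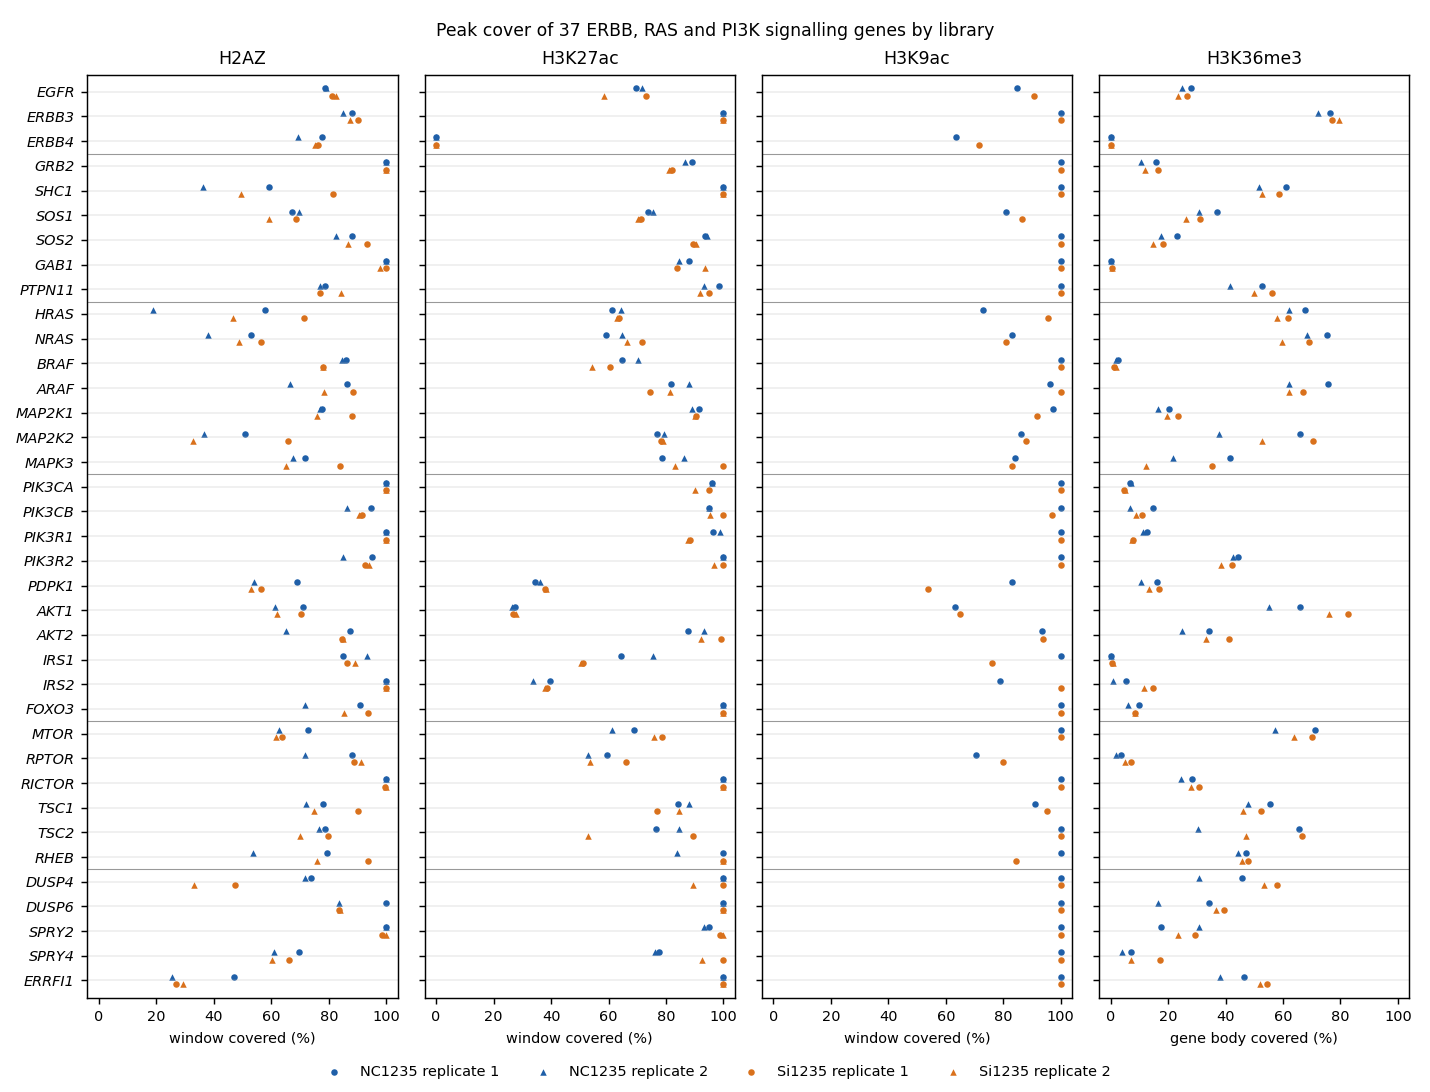
Peak cover (%) of the 37 signalling genes, 1 point per library, with NC1235 in blue, Si1235 in orange, circles for replicate 1 and triangles for replicate 2; lines separate receptors, adaptors, RAS to MAPK, PI3K to AKT, mTOR and feedback genes. ERBB4 stands at 0 for H3K27ac and H3K36me3 while keeping H2A.Z at 69.2 to 77.8%, and DUSP4 has the widest gap between arms for H2A.Z.

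Between arms, limma (fitted over all genes with at least 5% mean cover, Benjamini-Hochberg adjusted, threshold 0.05) called 0 of 37 genes for H2A.Z, 0 of 36 for H3K27ac and 0 of 32 for H3K36me3. The lowest adjusted p among them was 0.71, 0.13 and 0.38. At an unadjusted limma p under 0.05 stood 1, 6 and 3 of them. Over all genes, limma called 0.0% higher and 0.0% lower of 17475 for H2A.Z, 0.238% higher and 0.277% lower of 15514 for H3K27ac, and 0.0% and 0.0% of 8349 for H3K36me3, with 5.96, 14.1 and 7.94% at an unadjusted p under 0.05. The labels do not say that replicates came from separate cultures, so these p-values measure the spread between libraries, which may be technical.

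A looser count takes genes whose 2 Si1235 libraries both lay above, or both below, the 2 NC1235 libraries. For H2A.Z, 2 of 37 were higher in Si1235 (5.41%, against 20.8% of all genes tested) and 2 lower (5.41%, against 10.7%). For H3K27ac, 6 of 36 were higher (16.7%, against 23.2%) and 8 lower (22.2%, against 17.7%). For H3K36me3, 6 of 32 were higher (18.8%, against 20.3%) and 4 lower (12.5%, against 13.7%). Each H3K27ac and H3K36me3 share of the set was within 10 points of that of all genes, as was the H2A.Z share lower in Si1235. Only the H3K27ac share lower in Si1235 was above that of all genes. In the window 2.5 kb either side, the H2A.Z shares higher and lower were 18.9 and 13.5%, against 21.5 and 11.3%. The median difference, Si1235 minus NC1235, was 0.65 points for H2A.Z against 1.2 over all genes, 0.0 for H3K27ac against 0.0, and 1.47 for H3K36me3 against 0.69.

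**Figure D2:**
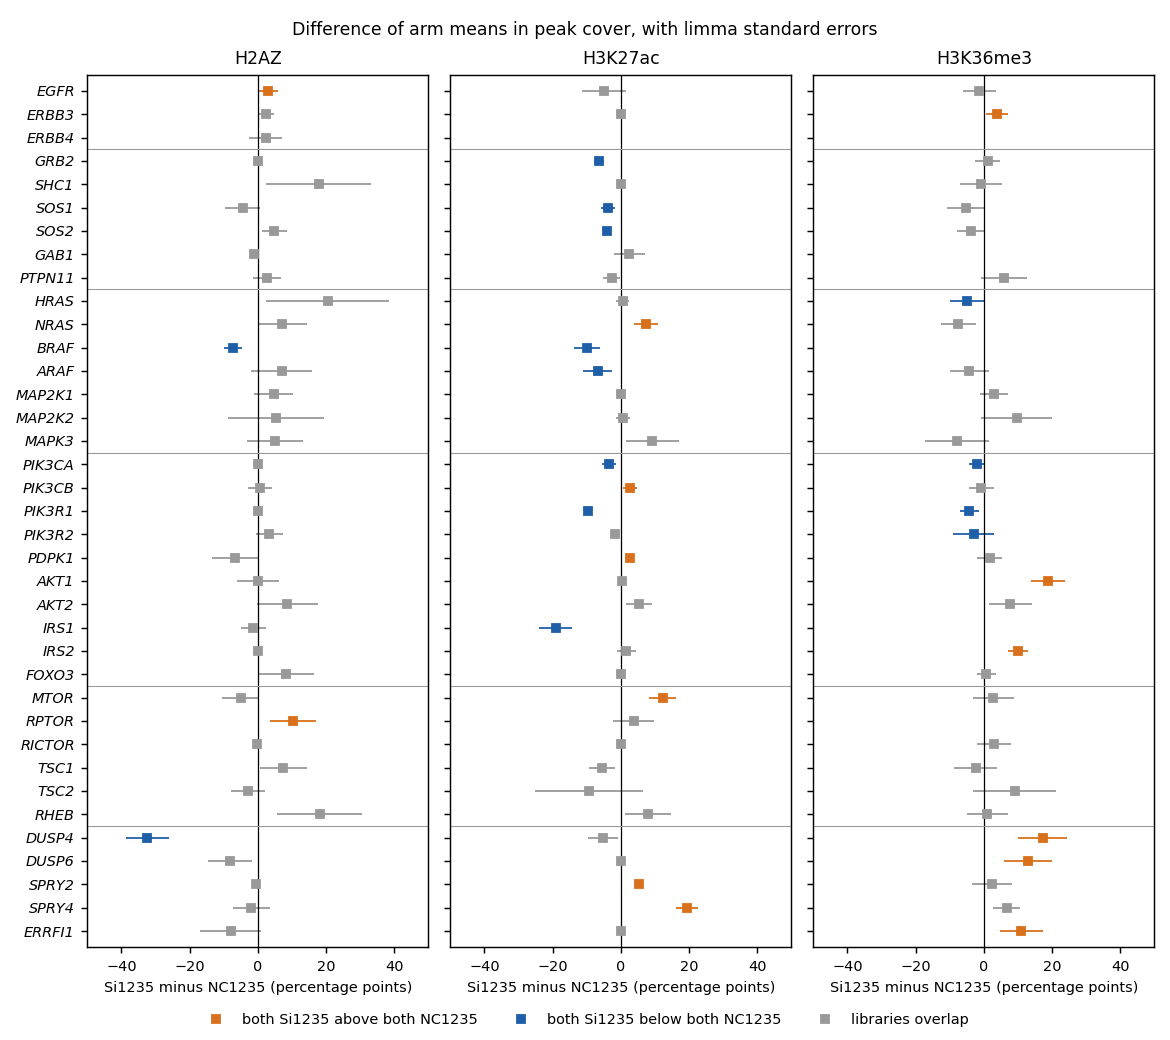
Difference of arm means in peak cover (Si1235 minus NC1235, percentage points) for each gene tested, with limma standard errors; orange and blue squares mark genes whose libraries did not overlap between arms. DUSP4 stands at -32.4 for H2A.Z, IRS1 at -19.1 and SPRY4 at 19.4 for H3K27ac, and AKT1 at 18.8 for H3K36me3.

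Promoter sequences from the RefSeq table (build GRCh38.p14) were available for 33 of the 37. The 250 bases before the start had a median GC content of 71.2% (47.2 to 83.2%), against 58.0% over 35116 promoters of the table, and a median ratio of observed to expected CpG of 0.87, against 0.56. The GC box GGGCGG, searched on both strands as were all motifs here, was in 28 of 33 (84.8%, against 42.6% of all promoters), and the ETS core CCGGAAG in 6 (18.2%, against 8.5%). The TATA box TATAAA was in 1, RPTOR (3.0%, against 10.7%), the forkhead motif TGTTTAC in 3 (9.1%, against 3.0%), the E-box CACGTG in 3 (9.1%, against 6.3%) and the AP-1 motif TGACTCA in 0 (0.0%, against 4.2%). A match is a run of letters, not a site shown to be bound. The promoters of the table include several starts for some genes, and lncRNA genes. Each of the 33 is a single start of a protein-coding gene, so these sets are unlike. The 5 promoters printed, 250 bases before the start on the gene's strand, belong to a receptor with an acetylated inner start, the receptor without H3K27ac, the gene with the largest difference in H3K27ac below 0, and a pair of feedback inhibitors; capitals mark GC boxes.
EGFR (chr7:55018767-55019016, + strand): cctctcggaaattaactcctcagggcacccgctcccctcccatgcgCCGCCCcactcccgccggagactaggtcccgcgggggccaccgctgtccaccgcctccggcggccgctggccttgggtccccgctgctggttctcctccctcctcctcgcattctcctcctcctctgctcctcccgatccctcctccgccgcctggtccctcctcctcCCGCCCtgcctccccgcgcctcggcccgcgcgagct
ERBB4 (chr2:212538803-212539052, - strand): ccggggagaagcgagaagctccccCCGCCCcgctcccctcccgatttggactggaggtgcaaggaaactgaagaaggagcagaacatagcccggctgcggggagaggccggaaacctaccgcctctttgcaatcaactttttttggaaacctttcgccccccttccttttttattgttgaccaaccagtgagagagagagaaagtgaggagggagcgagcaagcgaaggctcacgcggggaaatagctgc
IRS1 (chr2:226799821-226800070, - strand): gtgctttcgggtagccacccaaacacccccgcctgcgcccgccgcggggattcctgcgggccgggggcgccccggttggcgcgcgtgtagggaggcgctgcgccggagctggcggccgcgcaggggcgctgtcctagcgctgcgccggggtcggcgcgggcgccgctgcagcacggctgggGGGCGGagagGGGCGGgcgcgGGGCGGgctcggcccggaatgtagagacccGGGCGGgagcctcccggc
DUSP6 (chr12:89352502-89352751, - strand): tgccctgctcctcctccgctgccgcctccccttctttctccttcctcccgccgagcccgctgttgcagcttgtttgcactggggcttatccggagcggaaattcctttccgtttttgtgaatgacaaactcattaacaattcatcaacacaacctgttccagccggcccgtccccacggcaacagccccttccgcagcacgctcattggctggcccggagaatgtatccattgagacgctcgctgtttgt
ERRFI1 (chr1:8026310-8026559, - strand): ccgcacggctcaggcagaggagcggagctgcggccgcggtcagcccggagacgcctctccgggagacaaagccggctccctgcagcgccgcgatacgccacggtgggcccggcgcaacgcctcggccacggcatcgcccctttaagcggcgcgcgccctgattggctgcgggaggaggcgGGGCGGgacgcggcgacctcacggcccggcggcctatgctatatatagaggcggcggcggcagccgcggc

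The 3 receptors of the set carried different marks, and none of them passed the test between arms. ERBB3, the kinase-impaired partner of HER2 that docks PI3K, had its window fully covered by H3K27ac in all 4 libraries. Its best H3K27ac peak ranked above 97.2, 97.6, 99.0 and 98.6% of peaks by the authors' fold enrichment within the lists of NC1235 replicates 1 and 2 and Si1235 replicates 1 and 2. Its H2A.Z cover was 88.0 and 84.8% in NC1235, against 90.2 and 87.5% in Si1235, and its gene body (chr12:56080108-56103505) was covered by H3K36me3 over 76.4 and 72.3% in NC1235, against 77.1 and 79.5% in Si1235. The H2A.Z libraries overlapped between arms, whereas both Si1235 values for H3K36me3 lay above both NC1235 values, by 3.91 points on average (limma SE 3.22, adjusted p = 0.887).

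EGFR, the receptor for EGF and related ligands (chr7:55019017-55211628), had H2A.Z over 78.6 and 79.0% of its window in NC1235, against 81.2 and 82.6% in Si1235. The arms did not overlap, with a difference of 3.1 points (limma SE 2.9, adjusted p = 0.905). H3K27ac covered 69.7 and 71.6% in NC1235, against 73.0 and 58.5% in Si1235, so that the single low library was Si1235 replicate 2. In that library the peak was split by a gap from -115 to 99 bp around the start. The other 3 libraries held 1 peak across the start, from -394, -432 and -460 bp to 2233, 2109 and 1965 bp. By fold enrichment the best H3K27ac peak ranked above 70.4 and 66.7% of peaks in NC1235, against 78.9 and 84.3% in Si1235. H3K9ac covered 84.9% of the window in NC1235 and 90.7% in Si1235, with a peak ranked above 76.0 and 95.7% of peaks. Ranks were not tested. A further EGFR start listed 90822 bp into the gene was covered by H3K27ac over 100.0, 100.0, 100.0 and 88.8% of its window, with H2A.Z at 33.1, 0.0, 0.0 and 16.9%, in the order NC1235 replicates 1 and 2 and Si1235 replicates 1 and 2. H3K36me3 covered 28.0 and 24.9% of the EGFR body in NC1235, against 26.6 and 23.6% in Si1235, and the arms overlapped. That cover lay in the last of 3 equal segments of the body, at 69.7% in NC1235 and 63.4% in Si1235, against 3.36 and 3.86% in the first. In that last segment the libraries did not overlap, at 72.7 and 66.8% in NC1235, against 66.2 and 60.6% in Si1235, and the segment was not tested.

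ERBB4, the neuregulin receptor with the longest gene of the set (chr2:211375717-212538802, 1163.1 kb), carried H2A.Z and H3K9ac without H3K27ac or H3K36me3. No H3K27ac peak touched its window and no H3K36me3 peak its body in any of the 4 libraries. H2A.Z covered 77.8 and 69.2% of the window in NC1235, against 76.3 and 75.3% in Si1235, with a difference of 2.3 points (limma SE 4.84, adjusted p = 0.976). H3K9ac covered 63.5% in NC1235 and 71.7% in Si1235. H2A.Z peaks ran from -555, -384, -525 and -506 bp to 1459, 1404, 1415 and 1462 bp around the start in the same order of libraries, so the called block was nearly the same in both arms. ERBB4 was the only gene of the set at 0 in every library for any histone mark.

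Among adaptors, GRB2, which links receptors to SOS, had a window fully under H2A.Z in every library. Its H3K27ac cover was 89.2 and 86.7% in NC1235, against 82.0 and 81.2% in Si1235, lower in both Si1235 libraries with a difference of -6.37 points (limma SE 1.42, adjusted p = 0.252). The RAS exchange factors SOS1 and SOS2 showed the same order for H3K27ac cover, with differences of -3.8 points (limma adjusted p = 0.623) and -4.02 points (limma adjusted p = 0.147). By fold enrichment, the best H3K27ac peak of SOS1 ranked above 61.4 and 59.7% of peaks in NC1235, against 88.2 and 85.5% in Si1235. For GRB2 these ranks were 80.9 and 84.8%, against 88.8 and 85.4%. Only SOS2 ranked lower in Si1235, at 97.0 and 96.3%, against 88.5 and 90.6%, and ranks were not tested. SHC1, a receptor adaptor, was fully covered by H3K27ac and H3K9ac in every library, and its H2A.Z cover spread from 36.2 to 59.1% in NC1235 and from 49.6 to 81.4% in Si1235, so the arms overlapped. PTPN11, the SHP2 phosphatase, and GAB1, a docking protein for PI3K and SHP2, overlapped between arms for H2A.Z and H3K27ac. The GAB1 body held almost no H3K36me3, at 0.23 and 0.0% in NC1235, against 0.57 and 0.39% in Si1235, below the 5% needed for the test, while its window was covered by H3K27ac over 83.7 to 93.7%.

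In the RAS to MAPK branch, BRAF, a RAF kinase, was the gene with lower cover in Si1235 for both H2A.Z and H3K27ac. By the authors' fold enrichment its best peaks ranked higher in Si1235, and ranks were not tested. The best H2A.Z peak ranked above 87.0 and 93.9% of peaks in the NC1235 lists, against 99.0 and 98.5% in Si1235. For H3K27ac these ranks were 63.1 and 58.1% in NC1235, against 77.8 and 74.7% in Si1235. H2A.Z covered 86.0 and 84.7% of its window in NC1235, against 78.1 and 77.9% in Si1235, a difference of -7.35 points (limma SE 2.67, adjusted p = 0.853). H3K27ac covered 64.6 and 70.1% in NC1235, against 60.6 and 54.4% in Si1235, a difference of -9.87 points (limma SE 3.79, adjusted p = 0.455). Neither difference passed the test, and H3K9ac covered the whole window in both arms. H3K36me3 at BRAF was sparse, at 2.6 and 1.86% of the body in NC1235, against 1.18 and 1.84% in Si1235. The BRAF start in the table lies inside the gene's outer boundary, by under 1 kb.

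NRAS, a RAS GTPase, had H3K27ac over 59.2 and 64.6% in NC1235, against 71.7 and 66.6% in Si1235, higher in both Si1235 libraries by 7.25 points (limma SE 3.55, adjusted p = 0.557). HRAS, its relative, overlapped between arms for H3K27ac and for H2A.Z, where the 4 libraries spread from 18.9 to 71.2%. H3K36me3 covered 67.5 and 61.9% of the HRAS body in NC1235, against 61.7 and 58.0% in Si1235, a difference of -4.9 points (limma SE 5.06, adjusted p = 0.365) with both Si1235 values the lower. H3K9ac at HRAS covered 72.8% in NC1235 and 95.6% in Si1235. The Si1235 peak was 1 block from -911 to 1774 bp, where the NC1235 library had separate peaks on either side of the start, with a gap from -97 to 298 bp. ARAF, the X-linked RAF kinase, had lower H3K27ac cover in both Si1235 libraries (-6.8 points, limma adjusted p = 0.648). By fold enrichment its best H3K27ac peak ranked above 84.0 and 83.9% of peaks in NC1235, against 87.9 and 88.0% in Si1235. These ranks were not tested. The MEK kinases MAP2K1 and MAP2K2 and the ERK kinase MAPK3 overlapped between arms for all 3 replicated marks.

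In the PI3K to AKT branch, IRS1, the insulin receptor substrate that docks PI3K, had the largest difference in H3K27ac below 0 among the 36 genes tested. H3K27ac covered 64.4 and 75.4% of its window in NC1235, against 51.2 and 50.3% in Si1235, a difference of -19.1 points (limma SE 4.82, adjusted p = 0.291). Both Si1235 values lay below both NC1235 values, and the peaks downstream of the start, reaching 1098 to 1419 bp, were present in all 4 libraries. What differed was the upstream side, which was covered from -507 bp in NC1235 replicate 2 and from -534 to -288 bp and from -40 bp in NC1235 replicate 1, but only from -23 and -5 bp in the Si1235 libraries. H3K9ac covered the whole IRS1 window in NC1235 and 76.2% in Si1235, again with bases missing upstream, from -381 to -106 bp and beyond -797 bp. H2A.Z overlapped between arms at 85.1 to 93.3%. H3K36me3 was nearly absent from the IRS1 body (chr2:226731312-226799820), at 0.0 and 0.0% in NC1235, against 0.41 and 0.67% in Si1235.

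IRS2, its relative, showed another pattern, with H2A.Z over the whole window in every library and H3K27ac at 33.7 to 39.7% with overlapping arms. H3K36me3 covered 5.23 and 0.86% of its body in NC1235, against 14.7 and 11.5% in Si1235, a difference of 10.1 points (limma SE 2.93, adjusted p = 0.415). H3K9ac at IRS2 covered 79.0% in NC1235 and 100.0% in Si1235. PIK3R1, the p85-alpha regulatory subunit of PI3K, had the lowest adjusted p of the set. H3K27ac covered 96.4 and 99.0% of its window in NC1235, against 88.2 and 87.7% in Si1235, a difference of -9.7 points (limma SE 1.12, adjusted p = 0.13). H3K36me3 covered 12.6 and 11.2% of its body in NC1235, against 7.93 and 7.32% in Si1235, a difference of -4.27 points (limma SE 2.75, adjusted p = 0.81). Both Si1235 libraries were the lower for both marks, and H2A.Z was full throughout. At an inner PIK3R1 start 74908 bp into the gene, H2A.Z covered 0.0 and 0.0% in NC1235, against 35.0 and 24.7% in Si1235, with H3K27ac at 100.0% in all 4 libraries.

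AKT1, the kinase downstream of PI3K (chr14:104769349-104795748), had the largest difference in H3K36me3 of the set. Peaks covered 66.0 and 55.1% of its body in NC1235, against 82.8 and 76.0% in Si1235, higher in both Si1235 libraries by 18.8 points (limma SE 5.09, adjusted p = 0.375). Without NC1235 replicate 1 this was 24.28 points with a limma adjusted p of 0.0455, the lone NC1235 library being assumed to vary like the others. The difference lay mostly in the middle segment of the body, covered over 65.5 and 40.2% in NC1235, against 92.6 and 77.7% in Si1235. The last segment also separated, at 72.6 and 69.7% in NC1235, against 90.3 and 90.7% in Si1235. The outermost AKT1 start had H3K27ac at 26.4 to 27.8% in the 4 libraries, and a second listed start 2147 bp into the gene had H3K27ac at 16.0 and 13.6% in NC1235, against 63.6 and 46.2% in Si1235. At that second start H3K9ac covered 100.0% in both arms and H2A.Z 0.0% in all 4 libraries. The H3K27ac peak nearest the outermost start ran from 453 to 1369 and from 473 to 1220 bp in NC1235. In Si1235 that peak ran from 468 to 1897 and from 445 to 1895 bp. A further peak lay at 3051 to 3400 and 2949 to 3407 bp in NC1235, against 2626 to 3654 and 2973 to 3581 bp in Si1235. That second start was not part of the test. AKT2 overlapped between arms for all 3 replicated marks.

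PIK3R2, the p85-beta subunit, was lower in both Si1235 libraries for H3K36me3, at 44.2 and 42.5% in NC1235, against 42.1 and 38.6% in Si1235, a difference of -3.01 points (limma SE 6.0, adjusted p = 0.979). Its H3K27ac window was full in 3 libraries and at 96.8% in Si1235 replicate 2, and limma called that difference without Si1235 replicate 1 (-3.2 points, adjusted p = 0.0125). That call sets 1 library against full windows with no spread, the lone library being assumed to vary like the others, and it is no evidence of a difference between arms. PIK3CA, the p110-alpha catalytic subunit, had lower cover in both Si1235 libraries for H3K27ac (-3.47 points, limma adjusted p = 0.622) and for H3K36me3 (-2.14 points, limma adjusted p = 0.945). By fold enrichment its best H3K27ac peak ranked above 82.8 and 72.0% of peaks in NC1235, against 92.0 and 87.2% in Si1235. That of PIK3R1 ranked lower in Si1235, at 77.9 and 77.8%, against 73.9 and 67.8%. Ranks overlapped at IRS1 and were not tested. PIK3CB, the p110-beta subunit, was higher in both Si1235 libraries for H3K27ac by 2.67 points (limma adjusted p = 0.715). PDPK1, the kinase that activates AKT, was higher in both for H3K27ac by 2.55 points (limma adjusted p = 0.544), and H3K9ac covered 83.0% of its window in NC1235 and 53.8% in Si1235. A near-identical copy of PDPK1 lies on the same chromosome, so the placement of reads there is uncertain. FOXO3, a transcription factor that AKT keeps out of the nucleus, was fully covered by both acetyl marks in every library.

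Around mTOR, the kinase MTOR had H3K27ac over 68.7 and 61.2% of its window in NC1235, against 78.7 and 75.8% in Si1235, higher in both Si1235 libraries by 12.3 points (limma SE 3.94, adjusted p = 0.374). H2A.Z at RPTOR, which holds substrates to mTOR complex 1, was 88.2 and 71.6% in NC1235, against 88.7 and 91.4% in Si1235. The arms did not overlap, but NC1235 replicate 1 and Si1235 replicate 1 were 0.55 points apart and the SD within NC1235 was 11.7 points (difference 10.2, limma SE 6.75, adjusted p = 0.903). H3K36me3 covered 3.7 and 1.95% of the RPTOR body in NC1235, against 7.1 and 4.96% in Si1235, below the level needed for the test. RICTOR of mTOR complex 2, the inhibitors TSC1 and TSC2, and the GTPase RHEB, which TSC2 holds inactive, overlapped between arms for all 3 replicated marks. RHEB was called for H3K27ac without NC1235 replicate 1 (16.04 points, limma adjusted p = 0.0122) and the remaining NC1235 library was the only one of 4 not fully covered. This call too rests on 1 library assumed to vary like full windows with no spread.

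Among the feedback inhibitors, H3K36me3 means were higher in Si1235 at 5 of 5, by 2.39 to 17.2 points, and none passed the test. The 5 were not tested as a group. The median difference was 10.97 points against 0.75 over the other 27 genes tested and 0.69 over all genes. In 3 of 5 (60%, against 20.3% of all genes tested) the Si1235 libraries were both above the NC1235 libraries. Further inhibitors, from the wider list below, went both ways in H3K36me3, and limma called none. Both Si1235 libraries were higher at DUSP5 (8.4 points), DUSP7 (7.97 points) and CBLB (2.12 points). Both were lower at SPRY1 (-3.06 points), LRIG1 (-8.4 points), NF1 (-6.02 points) and RASA1 (-2.61 points). The mean at SPRY2 turned lower in Si1235 when NC1235 replicate 1 (-4.1 points) or Si1235 replicate 1 (-0.56 points) was left out. For H2A.Z all 5 means were lower in Si1235, with differences of -0.65 to -32.41 points, but only at DUSP4 did the libraries not overlap, and leaving out 1 library turned the sign at DUSP6, SPRY2, SPRY4 and ERRFI1, as did the window 2.5 kb either side at ERRFI1 (2.94 points). H3K9ac covered the whole window of 5 of 5 in both arms.

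DUSP4, a nuclear phosphatase of ERK and other MAP kinases (chr8:29333064-29350684), had the largest difference of the set. H2A.Z covered 74.0 and 71.6% of its window in NC1235, against 47.5 and 33.2% in Si1235. Both Si1235 libraries were the lower, with a difference of -32.41 points (limma SE 6.39, unadjusted p = 0.0108, adjusted p = 0.706). An H2A.Z block upstream of the start, beginning at -2312 to -2011 bp and ending at -336 to -278 bp, was called in all 4 libraries. Downstream of the start, peaks at 74 to 834 bp in NC1235 replicate 1 and at -16 to 693 bp in NC1235 replicate 2 had a counterpart of -23 to 215 bp in Si1235 replicate 1 and none in Si1235 replicate 2. NC1235 libraries also held peaks further in, at 1289 to 3181 bp and 2098 to 2834 bp, that the Si1235 lists did not hold. H3K27ac covered the whole window in 3 libraries and 89.4% in Si1235 replicate 2, where the peak was split from -322 to -108 bp. Without Si1235 replicate 1, that H3K27ac difference was -10.64 points with a limma adjusted p of 0.0102, the lone Si1235 library being assumed to vary like full windows with no spread. H3K36me3 covered 45.9 and 30.9% of the DUSP4 body in NC1235, against 57.8 and 53.5% in Si1235, higher in both by 17.2 points (limma SE 7.23, adjusted p = 0.622), or by 9.76 points without NC1235 replicate 2. In the middle segment, that cover was 30.0 and 8.63% in NC1235, against 61.5 and 55.0% in Si1235. The start of DUSP4 is not in the promoter table and was taken as the gene end with more cover of the other promoter marks, as for ERBB3, GAB1 and PTPN11.

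**Figure D3:**
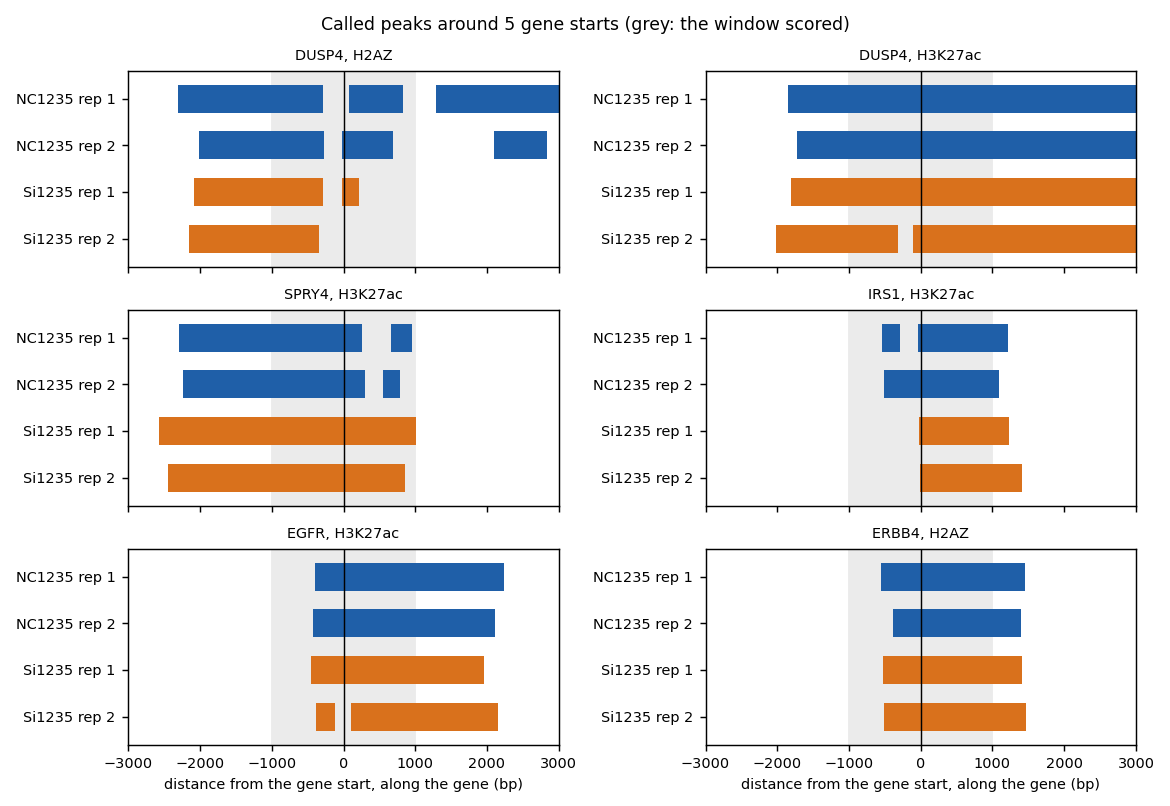
Called peaks as bars against distance from the gene start (bp, positive into the gene) for 6 pairs of gene and mark, 1 row per library, NC1235 in blue and Si1235 in orange, with the scored window in grey; bars are clipped at the axis ends. The upstream H2A.Z block of DUSP4 is in all 4 libraries while the downstream block shortens or is missing in Si1235, and SPRY4 H3K27ac is 1 block in Si1235 and 2 in NC1235.

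DUSP6, a cytoplasmic phosphatase of ERK (chr12:89347235-89352501), had H3K36me3 over 34.2 and 16.5% of its body in NC1235, against 39.6 and 36.9% in Si1235, higher in both Si1235 libraries by 12.9 points (limma SE 7.15, adjusted p = 0.752). This difference was 4.07 points without NC1235 replicate 2 and 21.77 points without NC1235 replicate 1. Cover of its middle segment was 30.2 and 11.2% in NC1235, against 54.7 and 51.3% in Si1235, while the last segment overlapped between arms. H3K27ac covered its whole window in every library, and H2A.Z covered 100.0 and 83.5% in NC1235, against 83.5 and 83.8% in Si1235, the high value being 1 library. ERRFI1, which binds and inhibits EGFR (chr1:8011727-8026309), had H3K36me3 over 46.4 and 37.9% in NC1235, against 54.5 and 51.8% in Si1235, higher in both by 10.97 points (limma SE 6.36, adjusted p = 0.768), or by 6.71 points without NC1235 replicate 2. H2A.Z at ERRFI1 was the lowest of the set averaged over the 4 libraries, at 47.1 and 25.3% in NC1235, against 26.99 and 29.3% in Si1235, under a window fully covered by H3K27ac.

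SPRY4, a Sprouty inhibitor of RAS activation (chr5:142310430-142325021), had the largest difference in H3K27ac above 0 in the set. H3K27ac covered 77.6 and 76.3% of its window in NC1235, against 100.0 and 92.7% in Si1235, higher in both Si1235 libraries by 19.4 points (limma SE 3.18, adjusted p = 0.183). In NC1235 the main peak ended at 253 and 295 bp and a separate one began at 656 and 553 bp, whereas in Si1235 1 peak ran on to 1010 and 854 bp. H3K36me3 at SPRY4 was 7.22 and 3.82% in NC1235, against 17.3 and 7.12% in Si1235, where the arms overlapped, and all of it lay in the last segment. SPRY2, its relative, had H3K27ac over 95.1 and 93.2% in NC1235, against 98.8 and 100.0% in Si1235, higher in both by 5.3 points (limma SE 0.94, adjusted p = 0.2). H3K36me3 at SPRY2 was 17.7 and 30.7% in NC1235, against 29.5 and 23.6% in Si1235, and the arms overlapped.

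**Figure D4:**
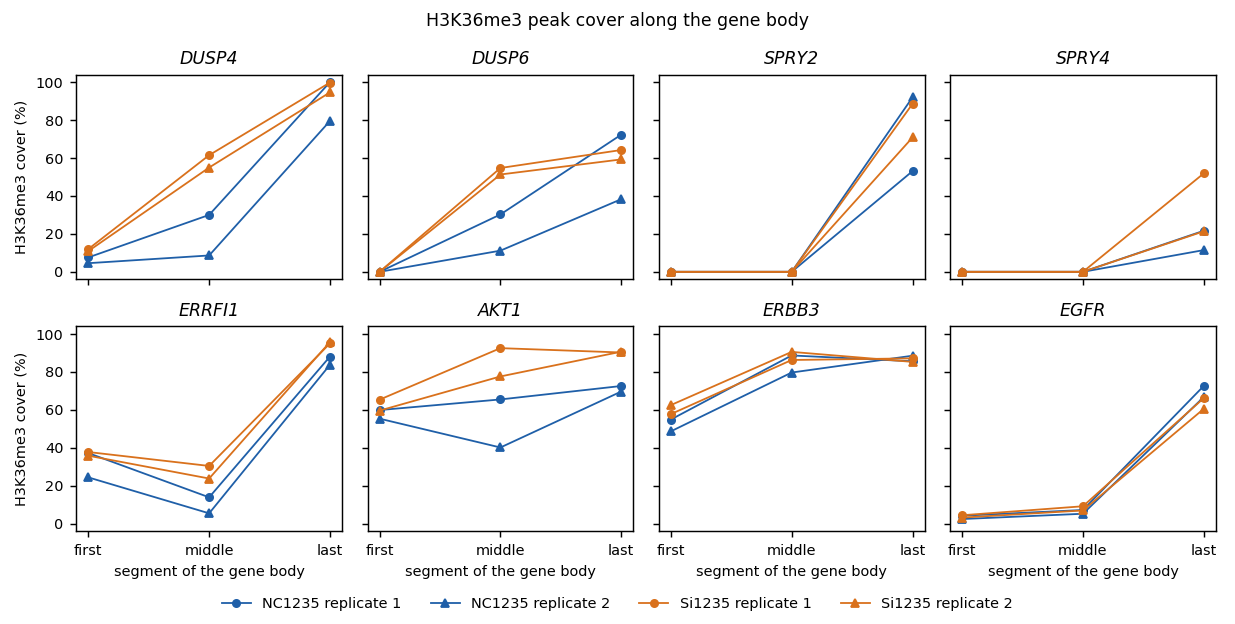
H3K36me3 peak cover (%) of the first, middle and last segment of the gene body for the 5 feedback inhibitors, AKT1, ERBB3 and EGFR, 1 line per library. The lines of the arms separate in the middle segment of DUSP4, DUSP6, ERRFI1 and AKT1. They also separate in the last segment of ERRFI1 and AKT1 and in the first of DUSP4 and ERBB3. At EGFR both Si1235 lines lie below both NC1235 lines in the last segment.

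Across the 32 genes with at least 5% mean cover, H3K36me3 was highest towards the gene end, as over all genes. Median cover in NC1235 was 7.6, 33.7 and 60.1% in the first, middle and last segment, against 13.5, 44.8 and 58.3% over all genes tested. In Si1235 it was 10.4, 42.0 and 61.2%, against 16.2, 47.7 and 59.5%.

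H3K9ac had 1 library per arm and no test, so a difference of at least 20 points is given as a description only. By that measure 2 of 37 genes were higher in Si1235 (5.41%, against 3.06% of 17933), HRAS and IRS2, and 2 were lower (5.41%, against 4.61%), PDPK1 and IRS1. In 19 of 37 the window was full in both libraries, against 4407 of 17933 over all genes tested. None of the 4 differences reached 20 points in the window 2.5 kb either side of the start.

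A wider list of 53 genes of the same pathways, holding ligands, further regulators and target genes, was scored the same way. For H2A.Z, 12 of 47 tested were higher in both Si1235 libraries (25.5%, against 20.8%) and 5 lower (10.6%, against 10.7%). For H3K27ac the counts were 8 higher (18.2%, against 23.2%) and 6 lower (13.6%, against 17.7%) of 44, and for H3K36me3 9 higher (32.1%, against 20.3%) and 5 lower (17.9%, against 13.7%) of 28, and limma called 0 of them for any of these marks. The largest non-overlapping differences in H3K36me3 were at FOSL1 and ETV5, transcription factor genes known as targets of ERK signalling. FOSL1 was covered over 28.9 and 4.48% in NC1235, against 62.5 and 57.3% in Si1235 (difference 43.2 points, limma adjusted p = 0.222), and ETV5 over 32.4 and 26.1% in NC1235, against 60.2 and 53.4% in Si1235 (27.6 points, limma adjusted p = 0.285). RPS6KB2, a ribosomal S6 kinase, followed at 67.2 and 39.2% in NC1235, against 78.5 and 76.0% in Si1235 (24.1 points, limma adjusted p = 0.544). With cover quantile normalised between libraries, limma called FOSL1 (42.89 points, adjusted p = 0.0482) and ETV5 (25.92 points, adjusted p = 0.0347). It also called FOSL1 without NC1235 replicate 1 (55.39 points, adjusted p = 0.0162) or without Si1235 replicate 2 (45.79 points, adjusted p = 0.0112), RPS6KB2 without NC1235 replicate 1 (38.1 points, adjusted p = 0.0197; 10.06 points without NC1235 replicate 2, adjusted p = 0.508), and DDIT4, an inhibitor of mTOR complex 1, in H3K27ac without Si1235 replicate 1 (-11.09 points, adjusted p = 0.0102). In each of these fits without a library, the lone library of its arm was assumed to vary like the others, which at DDIT4 were full windows with no spread. In H3K27ac the largest was HBEGF, an EGFR ligand, at 14.6 and 0.0% in NC1235, against 51.8 and 45.6% in Si1235 (41.4 points, limma adjusted p = 0.182), followed by the ERBB ligand gene NRG2 at 0.0 and 0.0% in NC1235, against 45.5 and 17.3% in Si1235 (31.4 points, limma adjusted p = 0.449). ETV4, a relative of ETV5, came next at 14.1 points (limma adjusted p = 0.575). In H2A.Z, the RAS relative RRAS was lower in Si1235 (-16.69 points), and the ubiquitin ligase gene CBLB and the kinase gene RPS6KA1 were higher by 13.3 and 12.9 points, with limma adjusted p of 0.903, 0.903 and 0.893. H3K9ac at the ligand gene BTC covered 71.8% in NC1235 and 49.5% in Si1235.

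The ChIRP library, made in the NC1235 arm alone, had 170 peaks inside the 37 genes, or 4.23 per 100 kb, against 4.79 per 100 kb over 18723 protein-coding genes of at least 2 kb. At least 1 peak lay in 81.08% of the 37, against 68.99% of those genes. A peak touched the start window of 4, GRB2, HRAS, NRAS and MAPK3 (10.81%). That share was 12.58% among those protein-coding genes with a start in the promoter table. The 37 include 4 genes whose start was placed by peak cover, so the sets are unlike. ERBB4 held 33 of the peaks and RPTOR 31, and these were the longest genes. Of the feedback inhibitors, DUSP4, DUSP6, SPRY2 and SPRY4 held 0 and ERRFI1 held 1, in genes of 5.2 to 17.6 kb. AKT1 held 5 in 26.4 kb, with a strongest fold enrichment, by the authors, of 10.1.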

How the data were processed

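Chromatin of HCC1954 cells was profiled in 2 arms, NC1235 and Si1235, with 15 peak lists (2 inputs had none used here). The submitters' processing notes name Bowtie2 2.2.9 (an aligner), MACS2 (a peak caller) and the build hg38. The version and settings of MACS2, and how inputs were used, are not given in the sources used here. Each deposited peak list gives each peak's position, a score, fold enrichment (a ratio), −log10 p and −log10 q, which in the authors' files was at least 2.0. Read depth is not given in these lists. Solving weak peaks for whole reads, described below, also gave a median background per library. For H3K36me3 it was 2.332 and 1.648 in NC1235, against 1.9 and 0.788 in Si1235. For H2A.Z it was 2.175 and 1.349, against 2.137 and 1.346, and for H3K9ac 2.952, against 2.396. Whether these differences shaped the cover was not tested. Only peak positions entered the tests; the authors' fold enrichment was used to rank peaks within a list, and −log10 q for an alternative.

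Cover was the percentage of a 2001 bp window (1 kb either side of the start) or of the gene body (protein-coding genes of at least 2 kb) under peaks. Starts came from the RefSeq promoter table for 33 of 37 genes, and otherwise from the gene end with more cover of the other promoter marks, a rule that gave the table's strand in 89.7% of genes checked for H2A.Z. Promoter windows were scored for protein-coding and lncRNA genes. All genes above 5% mean cover entered limma 3.58.1 (R 4.3.3; trended variance, no covariates), with Benjamini-Hochberg adjustment. An exact permutation test of 2 against 2 libraries cannot go below 0.333 and was not used. The fit was also run on simulated data with a capped spread and no ceiling at full cover. That run cannot show how the fit behaves at full windows or where replicates differ widely. Whether heights were whole reads was checked by solving the authors' −log10 p within 0.002.

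Samples were grouped by title. The genes, lists and tests were chosen with earlier results of these data known. The rule for named genes was: all listed genes, with values per library for receptors, feedback inhibitors, genes under 5% cover and the 5 others per mark with the largest non-overlapping differences, plus the 3 largest among 53 further pathway genes. Inner starts, peak edges, peak ranks, H3K9ac blocks and the further inhibitors named beside the feedback genes were chosen after values were seen. Alternatives were a window 2.5 kb either side, −log10 q of at least 5, equal numbers of peaks, quantile normalisation, no filter on low cover, a replicate block and leaving out each library.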

Additional observations from a re-analysis of the deposited data

How the results depend on the processing

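With 2 libraries per arm and no read depth in the lists, cover saturates at full windows and a difference in height is not seen, and the limits below are of called extent only. No listed gene passed limma's test under a wider window, a stricter q, equal numbers of peaks, quantile normalisation, no filter on low cover or a replicate block. Replicate numbers were shared by both arms but nothing says that they pair libraries, and deviations of same-numbered libraries correlated at 0.18, 0.06 and 0.3 for H2A.Z, H3K27ac and H3K36me3. With the replicate block, limma called 0 genes higher and 0 lower for each mark, where H3K27ac had 37 and 43 without it.

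With the window 2.5 kb either side, all-gene H3K27ac calls were 2 and 5. The non-overlapping listed genes were then 7 higher and 5 lower for H2A.Z (18.9 and 13.5%, against 21.5 and 11.3% of all genes tested with that window) and 14 higher and 6 lower for H3K27ac (38.9 and 16.7%, against 29.4 and 19.8%). H3K9ac differences of at least 20 points then numbered 169 higher and 233 lower over all genes, instead of 549 and 826, and 0 and 0 among the listed genes. With quantile normalisation, the non-overlapping listed genes were 4 higher and 9 lower for H2A.Z (10.8 and 24.3%, against 17.2 and 17.6% of all genes so normalised), 4 higher and 8 lower for H3K27ac (11.1 and 22.2%, against 19.6 and 20.8%), and 9 higher and 8 lower for H3K36me3 (28.1 and 25.0%, against 22.7 and 27.8%), and limma called 65 genes higher and 28 lower for H3K36me3. The cause of these shifts was not tested.

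Leaving out each library in turn, all-gene calls ranged from 5 to 319 higher and 2 to 268 lower for H3K27ac and from 14 to 106 higher and 4 to 23 lower for H3K36me3, with 0 for H2A.Z. Non-overlapping listed genes, with fewer libraries to overlap, ranged from 3 to 17 higher and 4 to 12 lower for H2A.Z, 8 to 11 higher and 10 to 13 lower for H3K27ac, and 6 to 20 higher and 4 to 15 lower for H3K36me3. Their shares higher and lower were 8.11 to 45.9% and 10.8 to 32.4% for H2A.Z, against 25.2 to 52.4% and 14.0 to 37.4% of all genes. For H3K27ac they were 22.2 to 30.6% and 27.8 to 36.1%, against 29.8 to 40.9% and 24.0 to 35.7%, and for H3K36me3 18.8 to 62.5% and 12.5 to 46.9%, against 21.5 to 60.5% and 15.0 to 49.4%.

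Among differences recomputed for the genes named by rule for each mark, 364 kept their direction and side of the threshold, 14 turned sign and 7 became calls. The H3K27ac calls at RHEB, PIK3R2 and DDIT4 given above are outside this count. The range over left-out libraries crossed 0 for H2A.Z at ERBB4 (-1.97 to 6.57 points), ERRFI1 (-18.92 to 2.87), DUSP6 (-16.39 to 0.1), SPRY2 (-1.37 to 0.07) and SPRY4 (-6.42 to 2.52, also 1.02). It crossed 0 for H3K27ac at EGFR (-12.14 to 2.35) and for H3K36me3 at EGFR (-2.92 to 0.28, also 0.2) and SPRY2 (-4.1 to 8.87, also -0.56). Signs also turned for H2A.Z at ERBB4 with quantile normalisation (-0.05) and at ERRFI1 in the wider window (2.94), and for H3K27ac at DUSP4 in the wider window (0.41). None of these differences had passed the test. Without NC1235 replicate 2, the H2A.Z differences at RPTOR and RRAS shrank to 1.87 and -7.22 points and that in H3K27ac at ETV4 to 5.85. Without Si1235 replicate 1, those at CBLB (H2A.Z) and NRG2 (H3K27ac) shrank to 6.02 and 17.34.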
